A study of Mus musculus with 4 samples.

Results

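Described here are 39 genes of homologous recombination, of interstrand crosslink repair (the Fanconi anaemia pathway) and of the checkpoint kinases that answer to broken or stalled DNA. They were chosen by name, as rows of the deposited table with these symbols, and all 39 were among the 14157 genes it lists. The libraries hold RNA of esophageal tumours that 4NQO (4-nitroquinoline 1-oxide), a mutagen forming bulky DNA adducts, had induced in C57BL/6 mice of both genotypes. The KO group is labelled with the genotype S100A14 CKO (replicates 1 and 8) and the WT group is wild type (replicates 3 and 6), so n = 2 per group. The ages, the 4NQO schedule and the promoter or cell type in which S100a14 was deleted are not given in the sources used here. Nor is it given whether each library came from a separate mouse, so p-values measure only the spread between these samples.

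Homologous recombination repairs a broken chromosome by copying the intact sister chromatid, and therefore works mainly in dividing cells after replication. Nucleases first trim the broken ends, the BRCA proteins then load a recombinase on the exposed strand, and helicases and nucleases finally resolve the joined molecules. The Fanconi proteins unhook crosslinks that block replication forks and hand the resulting break to the same machinery. ATM and ATR are the kinases that sense breaks and exposed single strands, and they act through CHK2 and CHK1 to delay the cell cycle. In squamous epithelium many of these genes are active mainly in the dividing basal cells.

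The deposited values are read counts scaled by one factor per library, called scaled values below. The reads recovered from them numbered 11672010 to 16182109 in KO libraries and 11132019 to 11545921 in WT libraries. Ribosomal RNA took 50.8% to 76.4% of the KO reads and 47.0% to 72.6% of the WT reads. Nuclear protein-coding genes kept 1052423 to 1530127 reads in KO and 1289852 to 2107060 in WT. The median tested repair gene rested on 35 and 21 reads in KO replicates 1 and 8, against 46 and 12 reads in WT replicates 3 and 6. S100a14 had a scaled value of 0 and 0.258 in the KO libraries, against 89.4 and 110.2 in the WT libraries (limma adjusted p = 0.0211), low in the libraries labelled KO. KO replicate 8 stood apart from the rest: across all 12304 genes tested its r with each of the remaining libraries was 0.769 to 0.816, whereas pairs without it reached 0.908 to 0.915. The squamous origin was visible in Krt14, a basal keratin, at 7872 and 2122 in KO replicates 1 and 8, against 11878 and 8730 in WT replicates 3 and 6.

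None of the repair genes differed between KO and WT tumours by the test used. It was a two-sided limma test on log2(value + 1), with a call at a Benjamini-Hochberg adjusted p under 0.05 over the 12304 genes tested. It took in the 37 members that reached a scaled value of 1 in 2 or more libraries, and left out Fancb and Rad51c. Of the 37, 0 passed, and their adjusted p in limma ran from 0.926 to 0.998. The background was itself low: 0.00813% of the 12304 genes passed. At an unadjusted p under 0.05, 0 members were counted in limma, in edgeR's quasi-likelihood test and in DESeq2, where limma gave 5.25% of all genes. In the authors' deposited table, 0 of the 39 members had an adjusted p under 0.05, against 0.749% of all listed genes, and the smallest was 0.795 for Brca2.

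The precision of 2 libraries per group was coarse. The standard error of a member's log2 fold change was 0.43 to 0.94, and all 37 of the 95% intervals held 0. The interval reached a 2-fold difference on the log2(value + 1) scale, up or down, for 37 of the 37. It reached a 2-fold increase in KO for 31 members and a 2-fold decrease for 25. For no member did the interval exclude 2-fold differences in both directions.

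Counted gene by gene, 21 tested members (56.8%, against 47.5% of all genes) were higher and 16 lower in KO, with a median log2 fold change of 0.15, against −0.03 over all genes tested. The groups did not overlap for 11 of the 37 (29.7%), near the background of 33.7% of all genes. Both KO libraries lay above both WT libraries for 7 members, against 14.5% of all genes, and below them for 4, against 19.3% of all genes. The 7 were Atr, Atrip, Bard1, Palb2, Rad51b, Xrcc3 and Wrn, and the 4 were Chek1, Rad51d, Fance and Fancf. Rad51b passed the filter on low values through its KO libraries only, so its place among the 7, the 11 and the 21 carries no weight. Without Rad51b, 20 of 36 tested members were higher and 16 lower in KO. The median of 0.15 includes it. The median moved with the library left out: it was −0.03 without KO replicate 1, 0.43 without KO replicate 8, 0.55 without WT replicate 3 and −0.22 without WT replicate 6.

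**Figure D1:**
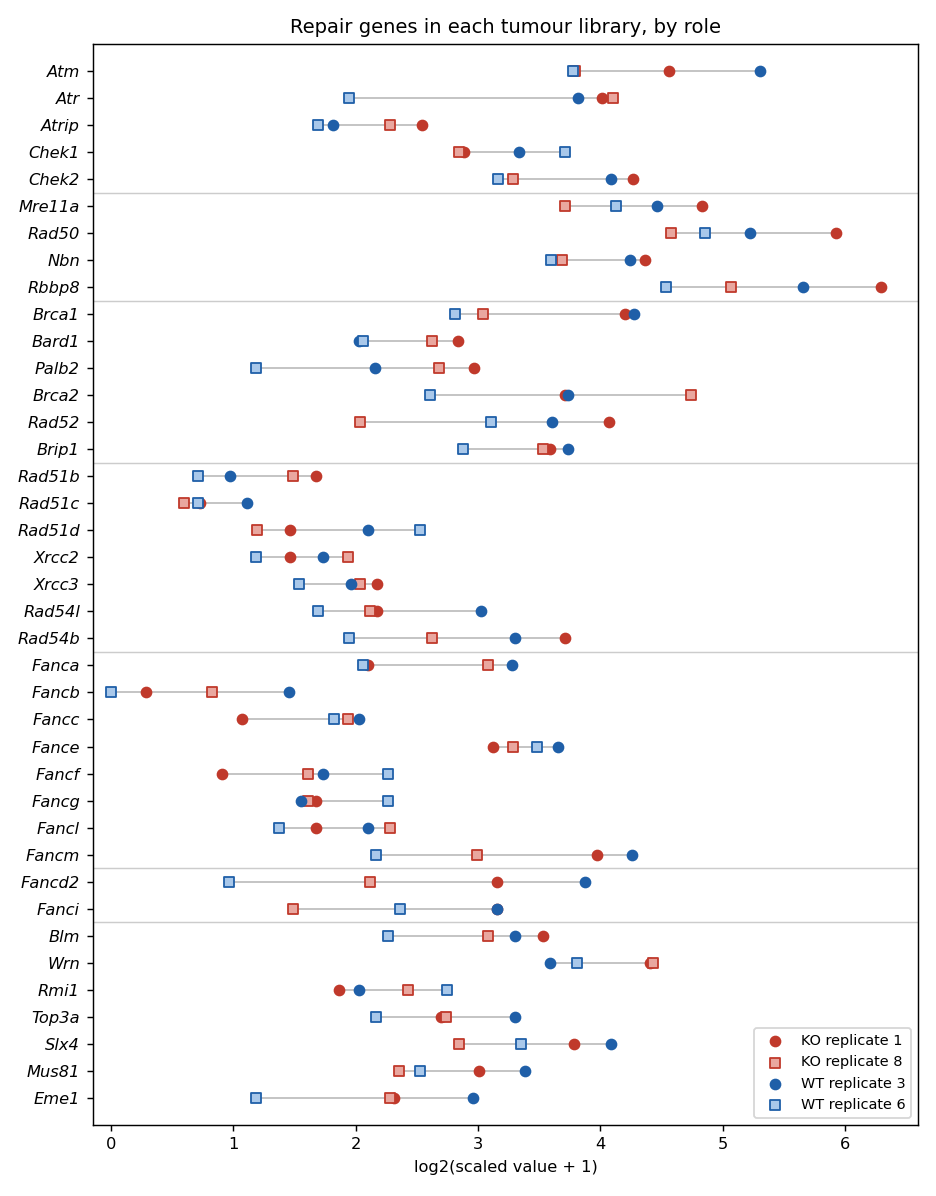
Level of each of the 39 repair genes as log2(scaled value + 1) in the 2 KO libraries (red) and the 2 WT libraries (blue), with roles separated by grey lines from checkpoint kinases at the top to junction enzymes at the bottom. Grey bars span the 4 libraries of a gene, and WT replicate 6 (light blue squares) is at the low end in 22 of the 37 tested genes.

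The most regular gap ran inside the WT group. WT replicate 6 was the lowest of the 4 libraries for 22 of 37 members (59.5%), against 22.5% of all genes tested. KO replicate 1 was lowest for 4 (10.8%, against 20.3% of all genes), KO replicate 8 for 8 (21.6%, against 35.2%) and WT replicate 3 for 3 (8.11%, against 21.3%). The highest value was in KO replicate 1 for 14 members (37.8%, against 20.7% of all genes) and in WT replicate 3 for 13 (35.1%, against 29.1%). It was in KO replicate 8 and WT replicate 6 for 5 each (13.5%), against 30.1% and 20.1% of all genes. This order of libraries does not follow the genotype labels.

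WT replicate 6 lay below WT replicate 3 by a median of −0.74 on the log2(value + 1) scale over the members, against −0.08 over all genes. For KO replicate 8 against KO replicate 1 the medians were −0.22 and −0.07. WT replicate 3 was higher than WT replicate 6 for 30 of 37 members (81.1%, against 55.0% of all genes). It was higher by more than 1 log2 unit for 13, and the reverse gap of more than 1 was found for 0. A gap of more than 1 in either direction was found for 35.1% of the members, against 17.9% of all genes. The 95% counting intervals of the WT libraries, which cover counting error only, did not meet for 13 members (35.1%), against 26.8% of all genes. The corresponding share for the KO libraries was 12 members (32.4%), against 38.1% of all genes. Across the tested members WT replicate 6 also correlated least with the rest, at r = 0.666 to 0.726, while the other libraries correlated with each other at 0.770 to 0.898 (37 genes that share these libraries). The count of 22 was the same after quantile normalization and after scaling on nuclear protein-coding genes, where the median WT gap was −0.70 and −0.69. WT replicate 6 was the library with the highest value of 1 read, 0.318, against 0.193 in WT replicate 3. Whether its depth plays a part in the gap was not tested.

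**Figure D2:**
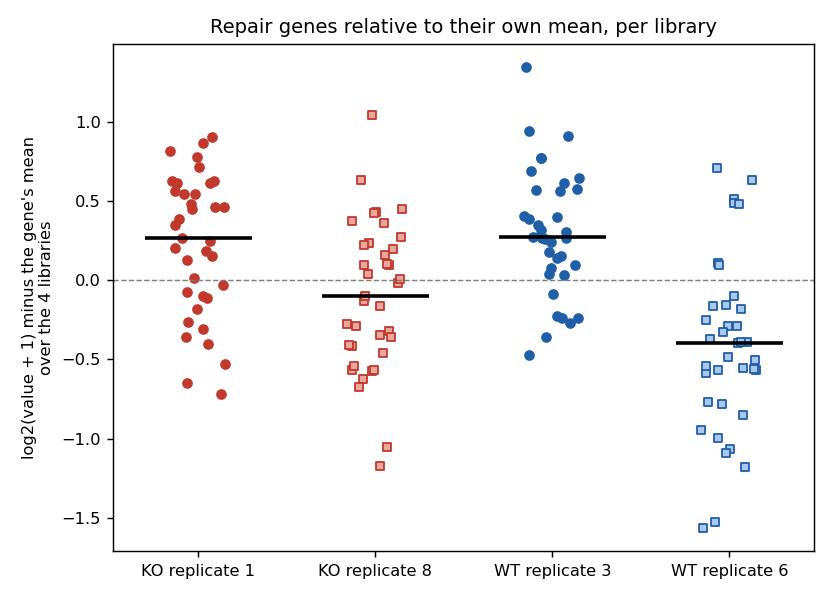
Each tested repair gene's log2(scaled value + 1) minus that gene's own mean over the 4 libraries, for KO replicates 1 and 8 and WT replicates 3 and 6, with black bars at the median of the 37 genes. The medians are 0.26 and −0.10 in the KO libraries, against 0.27 and −0.40 in the WT libraries.

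By size of the limma p among members whose groups did not overlap, the first were Palb2, Rad51d, Atr, Wrn, Chek1 and Bard1. Their promoters are shown because proliferation genes, to which this pathway belongs, are known to carry motifs of E2F factors, of the NF-Y factor (the CCAAT box) and of the MuvB complex (the CHR). RefSeq windows of GRCm38.p6, from 250 bases before to 50 after the gene start, were held for Palb2, Atr, Chek1 and Bard1. They lie at chr7:122132897-122133196 on the minus strand for Palb2, chr9:95857347-95857646 on the plus strand for Atr, chr9:36726609-36726908 on the minus strand for Chek1 and chr1:71102923-71103222 on the minus strand for Bard1. Capitals mark matches on either strand to CCAAT, to the E2F words TTTCCCGC, TTTCGCGC, TTTGCCGC and TTTGGCGC, or to the CHR word TTTGAA.
Palb2: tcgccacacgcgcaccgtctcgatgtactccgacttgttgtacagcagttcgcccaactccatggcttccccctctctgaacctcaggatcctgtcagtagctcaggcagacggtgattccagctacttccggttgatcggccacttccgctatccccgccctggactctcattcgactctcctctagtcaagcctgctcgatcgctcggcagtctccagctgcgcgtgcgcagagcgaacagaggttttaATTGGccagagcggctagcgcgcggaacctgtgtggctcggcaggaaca
Atr: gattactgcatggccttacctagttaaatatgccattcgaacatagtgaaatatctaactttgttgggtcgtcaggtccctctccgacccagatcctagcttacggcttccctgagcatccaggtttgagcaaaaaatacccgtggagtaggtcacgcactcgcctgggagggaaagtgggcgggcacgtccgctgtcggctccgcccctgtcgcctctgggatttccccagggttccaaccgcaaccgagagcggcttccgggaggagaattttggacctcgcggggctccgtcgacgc
Chek1: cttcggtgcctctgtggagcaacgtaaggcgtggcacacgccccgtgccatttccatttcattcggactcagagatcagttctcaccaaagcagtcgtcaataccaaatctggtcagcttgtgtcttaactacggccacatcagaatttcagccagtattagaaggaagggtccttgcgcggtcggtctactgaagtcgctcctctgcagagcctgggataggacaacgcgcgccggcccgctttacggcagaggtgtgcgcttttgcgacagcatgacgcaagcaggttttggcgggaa
Bard1: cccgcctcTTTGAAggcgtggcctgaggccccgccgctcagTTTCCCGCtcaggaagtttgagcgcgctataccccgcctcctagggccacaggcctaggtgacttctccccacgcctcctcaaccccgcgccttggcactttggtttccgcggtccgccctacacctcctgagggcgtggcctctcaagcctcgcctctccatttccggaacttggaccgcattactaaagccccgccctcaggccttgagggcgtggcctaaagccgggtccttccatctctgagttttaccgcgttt
Palb2 held a CCAAT box, read on the opposite strand, just after the start, and Bard1 held a CHR word and an E2F word upstream of it. Atr and Chek1 held none of these exact words in the window, which says only that these letters are not there.

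Over all members the table gave 34 windows for 30 genes. An E2F word stood in 7 windows (20.6%), of 6 genes, against 3.93% of 11713 windows of the genes tested here and 2.26% of all 32851 windows. The genes were Bard1, Brca2, Chek2, Fancg, Rad51c and Rmi1. A CCAAT box stood in 22 windows (64.7%), against 37.6% for the genes tested, and a CHR word in 3 (8.82%), against 12.2%. None of the matches overlapped in the windows shown. A match of letters describes the sequence and was not compared with binding. The 6 genes with an E2F word were not alike in these tumours: Bard1 was above WT in both KO libraries, and the groups of the other 5, with Rad51c untested, overlapped.

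The checkpoint kinases are the proximal sensors and effectors. Atr, which encodes the kinase of stalled forks, had 15.2 and 16.2 in KO replicates 1 and 8, against 13.1 and 2.86 in WT replicates 3 and 6. Its groups did not overlap, but both KO values and WT replicate 3 sat close together, and WT replicate 6 alone, with 9 reads, was low. The log2 fold change of Atr was 1.18 (SE 0.66, 95% interval −0.38 to 2.74, limma adjusted p = 0.926), and it was 0.24 without WT replicate 6. Atrip, the partner that brings ATR to exposed strands, had 4.84 and 3.87 in KO, against 2.51 and 2.22 in WT (log2 fold change 0.66, SE 0.50, limma adjusted p = 0.954). This gap rested on 22 and 15 reads in KO, against 13 and 7 in WT.

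Chek1, the effector kinase of ATR, lay on the other side. Its values of 6.38 and 6.18 in KO were below 9.07 and 12.1 in WT (log2 fold change −0.66, SE 0.46, 95% interval −1.75 to 0.44, limma adjusted p = 0.954). With single libraries left out its log2 fold change ran from −0.84 to −0.47, where groups that do not overlap cannot change sign. Chek1 is one of the few members that were highest in WT replicate 6. Atm, the kinase of breaks, had 22.7 and 12.9 in KO, against 38.6 and 12.7 in WT. Chek2, its effector, had 18.3 and 8.76 in KO, against 16.0 and 7.94 in WT. For Atm and Chek2 the spread inside each genotype was larger than the gap between the genotypes.

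The end-resection genes were the best expressed of the set per kilobase of transcript, a measure given below, though not by scaled value. They overlapped between the groups for 4 of 4 (33.7% of all genes did not overlap). Rbbp8, which encodes CtIP, the factor that starts resection, had 77.4 and 32.5 in KO, against 49.4 and 22.2 in WT. Rad50, the ATPase that tethers ends, had 59.8 and 22.9 in KO, against 36.3 and 28.0 in WT. Mre11a, the nuclease of the same complex, had 27.5 and 12.1 in KO, against 21.0 and 16.5 in WT. These spreads inside KO exceeded the differences between the genotypes. Nbn, the subunit that links the complex to ATM, had 19.6 and 11.9 in KO, against 17.95 and 11.1 in WT. All 4 genes were highest in KO replicate 1, and KO replicate 8 lay below it by a median of −1.17 log2 units, more than for any other role apart from the pair Fancd2 and Fanci.

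Among the BRCA mediators, 5 of 6 were higher in KO by the fitted value (47.5% of all genes were), and 3 of 6 without WT replicate 6. For 2 of 6 (33.3%) the groups did not overlap, against 33.7% of all genes. Palb2, which bridges BRCA1 and BRCA2, had 6.82 and 5.41 in KO, against 3.47 and 1.27 in WT. Its log2 fold change of 1.15 (SE 0.56, 95% interval −0.16 to 2.46, limma adjusted p = 0.926) had the smallest unadjusted p of all members, 0.0768. It stayed between 0.66 and 1.64 over the libraries left out, on 31 and 21 reads in KO, against 18 and 4 in WT. Bard1, the obligate partner of BRCA1, had 6.16 and 5.15 in KO, against 3.09 and 3.18 in WT (log2 fold change 0.68, SE 0.49, limma adjusted p = 0.954). It was the tightest of the non-overlapping genes inside WT, with both WT libraries within 0.03 log2 units of each other.

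Brca1 overlapped between the groups where Bard1 did not. It had 17.4 and 7.22 in KO, against 18.3 and 6.04 in WT, so that each genotype held one high and one low library (log2 fold change 0.07, SE 0.66, limma adjusted p = 0.998). Brca2, which loads the recombinase, had 12.1 and 25.8 in KO, against 12.4 and 5.08 in WT. Its log2 fold change of 1.05 (SE 0.60, 95% interval −0.35 to 2.46, limma adjusted p = 0.926) came from KO replicate 8 being high and WT replicate 6 being low, since the remaining libraries were level. Brca2 was the only member that was higher in KO replicate 8 than in KO replicate 1 by more than 1 log2 unit, on 100 and 55 reads. Brip1, a helicase that binds BRCA1, had 10.996 and 10.6 in KO, against 12.4 and 6.35 in WT. Rad52, an annealing factor, had 15.8 and 3.09 in KO, against 11.2 and 7.63 in WT, and this gap inside KO was the largest of any member there, at 2.04 log2 units.

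The paralogs of the recombinase, which help it assemble on DNA, were weakly expressed. Rad51d had 1.76 and 1.29 in KO, against 3.28 and 4.77 in WT (log2 fold change −0.98, SE 0.52, 95% interval −2.21 to 0.24, limma adjusted p = 0.926). That is the lowest fold change of the 37, on 8 and 5 reads in KO, against 17 and 15 in WT. Rad51b had 2.20 and 1.80 in KO, against 0.965 and 0.635 in WT, or 10 and 7 reads against 5 and 2. Rad51b was tested only through its KO libraries, so its side is not read. Xrcc3 had 3.52 and 3.09 in KO, against 2.90 and 1.91 in WT, and Xrcc2 had 1.76 and 2.84 in KO, against 2.32 and 1.27 in WT. Rad51c, which was not tested, had 0.660 and 0.515 in KO, against 1.16 and 0.635 in WT. The motor proteins that remodel the recombinase filament overlapped between the groups: Rad54l had 3.52 and 3.35 in KO, against 7.14 and 2.22 in WT, and Rad54b had 12.1 and 5.15 in KO, against 8.88 and 2.86 in WT.

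Genes of the Fanconi core complex, the ubiquitin ligase of crosslink repair, were lower in KO by the fitted value for 5 of 7 tested members and higher for 2 (28.6%, against 47.5% of all genes). The number lower was 4 without KO replicate 1 or without WT replicate 3. It was 6 without KO replicate 8 or without WT replicate 6. The groups did not overlap for 2 of the 7 (28.6%), against 33.7% of all genes. Fance, which connects the core to its substrate, had 7.70 and 8.76 in KO, against 11.6 and 10.2 in WT (log2 fold change −0.36, SE 0.45, limma adjusted p = 0.993). Fancf, an adaptor of the core, had 0.880 and 2.06 in KO, against 2.32 and 3.81 in WT (log2 fold change −0.74, SE 0.56, limma adjusted p = 0.954). With single libraries left out the log2 fold changes ran from −0.45 to −0.28 for Fance and from −1.09 to −0.38 for Fancf. Their sign could not change there, since for neither gene did the groups overlap. Fancf rested on 4 and 8 reads in KO, against 12 each in WT.

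The remaining core genes overlapped. Fanca had 3.30 and 7.47 in KO, against 8.69 and 3.18 in WT, and Fancc had 1.10 and 2.84 in KO, against 3.09 and 2.54 in WT. Fancg had 2.20 and 2.06 in KO, against 1.93 and 3.81 in WT. These genes encode adaptors of the complex, and the highest library was WT replicate 3 for Fanca and Fancc and WT replicate 6 for Fancg. Fancl, which carries the ligase activity, had 2.20 and 3.87 in KO, against 3.28 and 1.59 in WT. Fancm, the translocase that recognises blocked forks, had 14.7 and 6.96 in KO, against 18.1 and 3.50 in WT. Its WT libraries held 94 and 11 reads, the widest WT gap after Fancd2. Fancb, on the X chromosome, had 0.220 and 0.773 in KO, against 1.74 and 0 in WT, and for its count of 0 reads in WT replicate 6 the floor of 3 reads is a value of 0.953.

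Fancd2 and Fanci encode the clamp that the core ubiquitinates at a crosslink. Fancd2 had 7.92 and 3.35 in KO, against 13.7 and 0.953 in WT, so the WT libraries were the highest and the lowest of the 4. Its WT libraries held 71 and 3 reads, with 95% counting intervals of 10.7 to 17.3 and 0.197 to 2.79 in scaled value. The gap between them was 2.91 log2 units, the largest inside a genotype for any member. The log2 fold change of Fancd2 was accordingly undetermined in sign, at 0.22 (SE 0.94, 95% interval −2.003 to 2.44, limma adjusted p = 0.998), and at −0.33 in edgeR's quasi-likelihood test. Fanci had 7.92 and 1.80 in KO, against 7.91 and 4.13 in WT. Both were higher in KO replicate 1 and WT replicate 3 than in the other library of the same genotype.

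The enzymes that undo or cut joined molecules gave 1 gene without overlap of 7 (14.3%, against 33.7% of all genes). Wrn, a RecQ helicase, had 20.2 and 20.6 in KO, against 11.002 and 13.0 in WT. Its log2 fold change of 0.72 (SE 0.43, 95% interval −0.29 to 1.74, limma adjusted p = 0.933) stayed between 0.61 and 0.84 over the libraries left out. Wrn had the best counted of the non-overlapping gaps, with 92 and 80 reads in KO, against 57 and 41 in WT, and the smallest standard error of the 37. Blm, a second RecQ helicase, had 10.6 and 7.47 in KO, against 8.88 and 3.81 in WT. Its partners in dissolving joined strands overlapped as well: Top3a had 5.50 and 5.67 in KO, against 8.88 and 3.50 in WT, and Rmi1 had 2.64 and 4.38 in KO, against 3.09 and 5.72 in WT.

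The structure-specific nucleases overlapped between the groups. Mus81 had 7.04 and 4.12 in KO, against 9.46 and 4.77 in WT. Its partner Eme1 had 3.96 and 3.87 in KO, against 6.76 and 1.27 in WT. Slx4, the scaffold that holds several nucleases, had 12.8 and 6.18 in KO, against 16.0 and 9.21 in WT. In each of these, WT replicate 3 held the highest value of the 4.

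**Figure D3:**
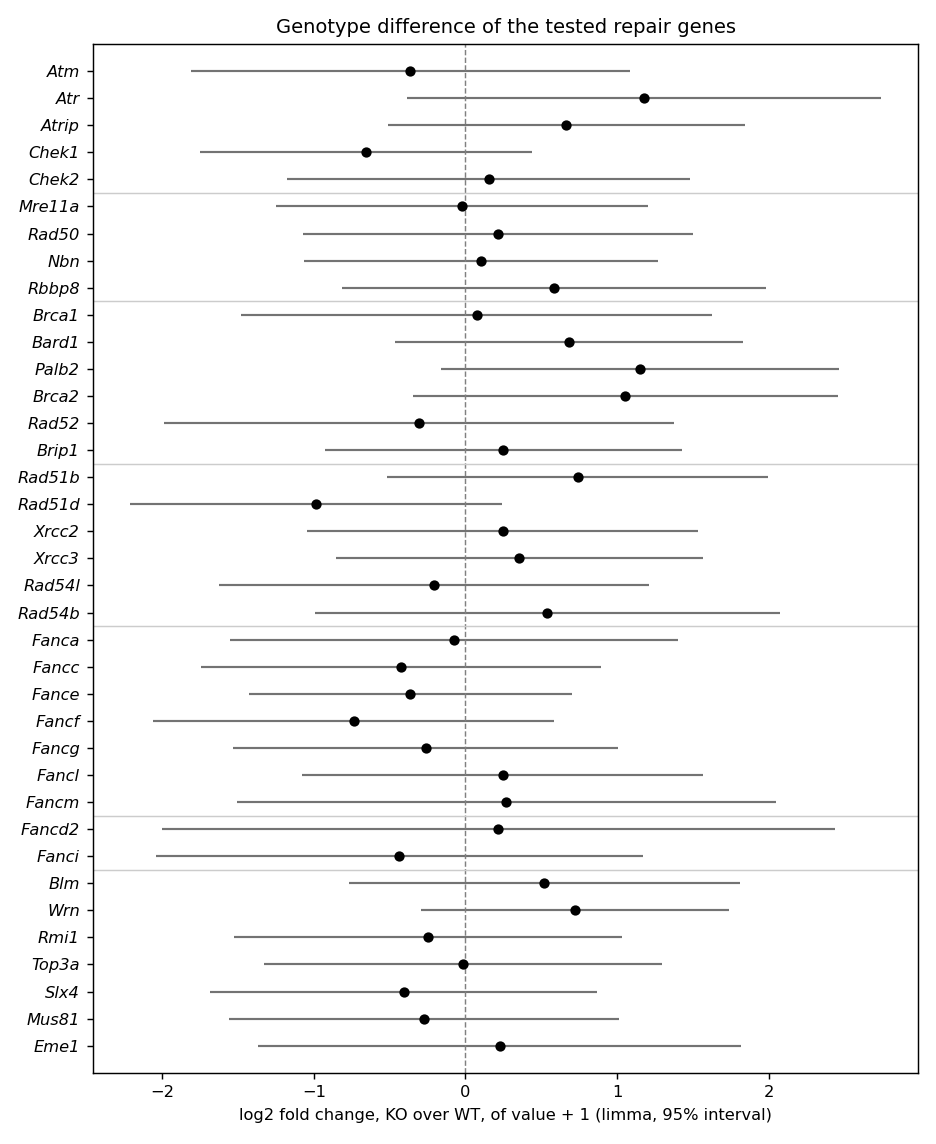
Log2 fold change of KO over WT, on the log2(value + 1) scale, for the 37 tested repair genes in order of role (points), with 95% intervals from limma (bars). Every interval crosses the dashed line at 0, and the points run from −0.98 for Rad51d to 1.18 for Atr.

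Levels between genes were compared per kilobase of transcript, as scaled value divided by the length of the transcript with the longest coding sequence in GENCODE M21. By the mean over the 4 libraries Rbbp8 came first at 12.9 per kilobase, followed by Rad50 at 7.13, Nbn at 5.97, Mre11a at 5.87, Chek2 at 5.60 and Rad52 at 5.57. At the other end stood Fancb at 0.229, Rad51c at 0.455, Xrcc2 at 0.630, Rad51b at 0.640, Bard1 at 0.777 and Fancc at 0.798 per kilobase. The per-kilobase values of Rbbp8 were 21.97 and 9.22 in KO, against 14.03 and 6.31 in WT, which overlap those of Rad50 at 11.6 and 4.45 in KO, against 7.04 and 5.43 in WT. The ranges over libraries also overlapped between neighbours among the other genes given here. The resection genes filled the first 4 places, and 3 of the 6 lowest were paralogs of the recombinase.

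The members' transcripts ran from 1.63 to 10.7 kilobases, with a median of 3.52 kilobases for the 37 tested, against 2.96 for all genes tested. Over the 37, log2 fold change and transcript length had a Spearman correlation of 0.254, against 0.143 over 12281 genes with a length. Genes are not independent replicates, and they share the same 4 libraries, so this is a description. The part of length in the fold changes was not tested.

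Other genes of the pathway gave no call either. Of 33 tested genes of recombination, resection and crosslink repair outside the 39, 0 passed in limma. In KO 19 were higher (57.6%, against 47.5% of all genes) and 14 lower, with a median log2 fold change of 0.05. The groups did not overlap for 9 (27.3%, against 33.7% of all genes), 4 above and 5 below. One of the 33 passed the filter through WT libraries only. Slx1b, the nuclease subunit that SLX4 holds, had 2.20 and 1.29 in KO, against 5.79 and 4.45 in WT (limma adjusted p = 0.926), and Rpa1, the large subunit of the protein that coats exposed strands, had 22.9 and 34.3 in KO, against 42.5 and 39.1 in WT. Of 15 end-joining genes, which rejoin breaks without a template, 0 passed. In KO 8 were higher (53.3%, against 47.5% of all genes) and 7 lower, with a median of 0.09. Rif1, which protects ends from resection, had 49.9 and 37.4 in KO, against 26.8 and 22.9 in WT, and Polq, the end-joining polymerase, had 7.92 and 11.1 in KO, against 9.07 and 1.59 in WT. Of 21 checkpoint mediators 0 passed, 13 were higher (61.9%, against 47.5% of all genes) and 8 lower, with a median of 0.25. Tipin, a fork protection factor, had 13.6 and 14.7 in KO, against 8.69 and 9.85 in WT. With single libraries left out the medians lay between −0.12 and 0.12 for the further recombination genes, −0.30 and 0.33 for end joining and 0.0483 and 0.32 for the mediators.

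Recombination genes are expressed with the cell cycle, and the cell cycle lists did not follow a common direction. Of 28 replication and S phase genes 0 passed. The groups did not overlap for 12 (42.9%, against 33.7% of all genes), 3 above and 9 below, where 14.5% of all genes lay above and 19.3% below. In KO 10 were higher (35.7%, against 47.5% of all genes) and 18 lower, with a median of −0.18. That median was 0.0387 without KO replicate 1, 0.0425 without WT replicate 3 and −0.49 without WT replicate 6. Pcna, the sliding clamp, had 41.1 and 33.2 in KO, against 78.4 and 68.6 in WT, and Mcm2, of the replicative helicase, had 27.3 and 30.9 in KO, against 52.5 and 44.8 in WT. Of 28 genes of G2 and mitosis 0 passed, and the groups did not overlap for 12 (42.9%, against 33.7% of all genes), 11 above and 1 below. In KO 26 were higher (92.9%, against 47.5% of all genes) and 2 lower, with a median of 0.66. That median was 0.18 without WT replicate 6 and 0.997 without WT replicate 3. Kif23, a kinesin of cytokinesis, had 41.6 and 23.7 in KO, against 13.9 and 8.90 in WT, and Birc5, or survivin, had 11.7 and 16.0 in KO, against 8.49 and 5.08 in WT. The members' median of 0.15 lay between these medians with all libraries, but at −0.03 it was below both without KO replicate 1. A difference between the lists was not tested.

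The median gap inside WT differed in size from list to list, and single genes departed from their list, as the WT values of Polq show. WT replicate 6 lay below WT replicate 3 by a median of −0.68 log2 units for the G2 and mitosis list and −0.31 for the S phase list. It was −0.22 for the checkpoint mediators, −0.15 for the further recombination genes and −0.01 for end joining, beside −0.74 for the members, and a difference between these medians was not tested. The widest medians by role were those of the Fancd2 and Fanci pair at −1.85, the checkpoint kinases at −0.93 and the BRCA mediators at −0.92, and the narrowest was that of the Fanconi core at −0.21.

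**Figure D4:**
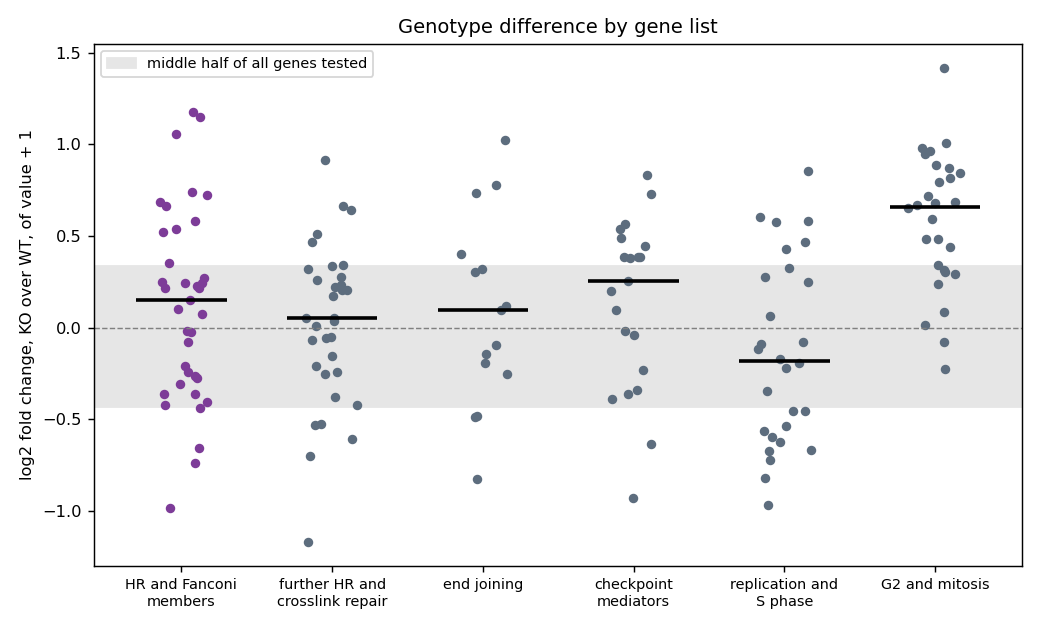
Log2 fold change of KO over WT, on the log2(value + 1) scale, for each tested gene of the repair members (purple) and of the lists set beside them (grey), with black bars at the list medians and the interquartile range of all tested genes shaded. The medians are 0.15 for the members, 0.05, 0.09 and 0.25 for the further repair lists, −0.18 for replication and S phase and 0.66 for G2 and mitosis.

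Marker levels of other cells varied between these tumours, though 0 passed in limma, and in bulk tissue fewer cells of a type cannot be told apart from less RNA per cell. Macrophage markers were higher in KO for 9 of 9 tested genes (47.5% of all genes were), beside 2 (Cd163 and Adgre1) that passed the filter through KO libraries only. The summed scaled value of the macrophage markers was 93.5 and 219 in KO, against 40.5 and 51.5 in WT. Skeletal muscle markers, tested or not, summed to 71.7 and 309 in KO, against 63.3 and 64.8 in WT. Most of both WT sums was Tnni2, which was level between the groups, at 52.3 and 54.6 in KO, against 56.6 and 50.8 in WT. Of the tested muscle markers 4 of 5 were higher, beside Tnnt3, Mylpf and Atp2a1, which passed through KO libraries only. Fibroblast markers summed to 150.2 and 913 in KO, against 161 and 270.4 in WT (9 of 10 higher). Suprabasal keratinocyte markers summed to 2717 and 153 in KO, against 13084 and 3637 in WT (9 of 10 lower), basal ones to 22439 and 5419 in KO, against 23992 and 22426 in WT (6 of 10 lower), and endothelial ones to 31.4 in each KO library, against 41.7 and 57.2 in WT (6 of 8 lower). Of the lymphocyte and plasma cell markers 2 were tested: Jchain, which also passed through KO only, had 7.92 and 7.99 in KO and was at 0 in both WT libraries, and Xbp1 had 53.7 and 27.3 in KO, against 117.9 and 93.7 in WT. The part of these cells in the values of the repair genes was not tested.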

How the data were processed

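Tumour RNA was extracted with Trizol and made into TruSeq libraries, per the labels' protocols. The deposited table holds scaled read signal per gene and library. Per the submitters' processing notes the build was mm9 and DESeq was used, with no role or version. Aligner, read counter, strand setting and the rule for shared reads are not given in the sources used here. Log2 fold changes, p-values and adjusted p-values that the authors deposited are cited only as the authors' deposited table.

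Every value was a whole multiple of one step per library (100% of 56628 values, tolerance 0.001), so whole reads were recovered. All 4 libraries were used. The main test was limma 3.58.1 (trended prior, genotype as sole term) in R 4.3.3 on log2(value + 1), a scale that shrinks the fold changes of low genes, for the genes that reached a value of 1 in 2 or more libraries. The limma step was run on simulated counts in which replicates differed only by depth and the same random spread for every gene. That setting does not copy the gaps between these libraries. An exact permutation test of 2 against 2 cannot pass 0.05, so none was run. Alternatives were quantile normalization, TMM factors of nuclear protein-coding genes, a pseudocount of 0.1, no filter, no trend, edgeR 4.0.16 (quasi-likelihood) and DESeq2 1.42.0 on the recovered reads, and leaving out each library. No batch is given in the labels.

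The members and lists were chosen with earlier results of these data known. Every member could be named. Of each further list up to 4 genes with the smallest limma p could be, and Adgre1 and Tnni2 are named beyond this rule. Promoters were those of up to 6 members without overlap and with the smallest p. Counting intervals are exact Poisson intervals at 95%. The labels name no molecular identifiers, so PCR copies may be counted and these intervals and floors cover counting error only.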

Additional observations from a re-analysis of the deposited data

How the results depend on the processing

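The count of 0 members past the threshold was the same under all 11 alternatives run. The count over all genes was 1 in limma and was 0 with a pseudocount of 0.1, 2 with no filter, 0 in edgeR's quasi-likelihood test (630 at an unadjusted p under 0.05), 49 in DESeq2 and 0 to 510 over the libraries left out, with 510 without KO replicate 1, 6 without KO replicate 8 and 0 without either WT library, where the lone library of a group is assumed to vary like the others. Members without overlap numbered 11, against 11 or 12 under the other scalings and 20 to 30 with a library left out, where fewer samples overlap less often. The share of all genes without overlap was not counted in these alternatives, so the 20 to 30 are not read as a result about the members. With single libraries left out the members' median had −0.22 as its lowest and 0.55 as its highest value. The fold change of 24 of 37 members took the other sign in some alternative and that of 13 did not. The 13 include all 11 members without overlap, whose sign could not change when a library was left out. The split into 24 and 13 is therefore largely the overlap count again. Over the libraries left out, the 24 spanned, on the log2 scale, Atm −1.13 to 0.40, Brca1 −0.65 to 0.80, Brip1 −0.18 to 0.68, Chek2 −0.34 to 0.64, Eme1 −0.66 to 1.11, Fanca −0.68 to 0.53, Fancc −0.86 to 0.0112, Fancd2 −1.24 to 1.67, Fancg −0.62 to 0.0949, Fanci −1.27 to 0.40, Fancl −0.12 to 0.61, Fancm −0.77 to 1.32, Mre11a −0.58 to 0.54, Mus81 −0.70 to 0.15, Nbn −0.24 to 0.44, Rad50 −0.46 to 0.89, Rad52 −1.33 to 0.71, Rad54b −0.14 to 1.22, Rad54l −0.88 to 0.46, Rbbp8 −0.0324 to 1.196, Rmi1 −0.60 to 0.11, Slx4 −0.88 to 0.0611, Top3a −0.59 to 0.55 and Xrcc2 −0.0278 to 0.52. Outside these, Mre11a was at 0.0124 with quantile normalization, 0.0207 with TMM factors, 0.12 in edgeR and 0.13 in DESeq2, Rad52 at 0.0478 in edgeR and 0.0597 in DESeq2, Fancd2 at −0.33 in edgeR and −0.31 in DESeq2, and Top3a at 0.0333, 0.0239 and 0.00034 with quantile normalization, TMM factors and a pseudocount of 0.1. The cause was not tested. One member had no adjusted p in DESeq2. No paired analysis was possible because the groups share no replicate number.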
